A study of Mus musculus with 3 samples.

Results

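Solute carriers are the membrane proteins that move amino acids, sugars, ions, metals, nucleosides and organic solutes across cell membranes, and they are numbered by family and then by member. The genes described here are those with a symbol of the form Slc, family number, a, member number, leaving out the hexose carriers of Slc2, the organic ion carriers of Slc22 and the mitochondrial carriers of Slc25. On the arrays, 180 features with exactly 1 platform gene symbol met this rule, for 164 genes. A log2 ratio on all 3 arrays was available for 169 of these features and 156 of these genes, from 45 families, out of 19015 rows measured in all.

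The material was fetal kidney of 13.5 days post coitum (dpc) and, set against it, metanephroi of 11.5 dpc, the first stage of the permanent kidney. Both came from CD1 mice (no genetic change or treatment is stated), were microdissected as pools of both sexes, and were set against each other as amplified RNA, labelled by the amino allyl method, on 3 Compugen oligonucleotide arrays that each carried both ages. The dyes are given as red/green for arrays 1 and 2 and as green/red for array 3. Each value is a log2 ratio that is likely 11.5 over 13.5 dpc, so a positive value reads as a level lower at 13.5 dpc and a negative value as a level higher at 13.5 dpc. This direction is not settled, and every direction given below turns if it is wrong.

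In the mature kidney, solute carriers of the apical and basolateral membranes of each tubule segment take back sugars, amino acids, phosphate and salts from the filtrate. Other members serve every growing cell, bringing in glutamine and other amino acids for protein synthesis, moving lactate and bicarbonate to hold the pH of the cytoplasm, and supplying zinc, iron, phosphate and choline. The first nephrons form at about 13.5 dpc, while at 11.5 dpc the kidney is an early ureteric bud in its mesenchyme, so most segments that use the reabsorbing carriers do not yet exist at either age. In whole kidneys, fewer cells of a type and less RNA per cell cannot be told apart, which holds for every ratio below.

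The 3 arrays gave values for 20601, 21274 and 21563 gene features. Over all rows the median log2 ratios were 0.011, 0.064 and -0.091 and the standard deviations 0.56, 0.75 and 0.93, and over the 156 solute carriers the medians were 0.0014, 0.013 and -0.064 and the standard deviations 0.56, 0.74 and 0.77. Across the 156 carriers, which are genes and not independent replicates, the Pearson correlation was 0.31 between arrays 1 and 2, 0.096 between arrays 1 and 3 and -0.067 between arrays 2 and 3. Over all rows the same pairs gave 0.27, 0.12 and -0.12. The Spearman correlations were 0.38, 0.15 and 0.16 over the carriers and 0.36, 0.13 and 0.0010 over all rows. Array 3, the array of the other dye order, thus followed array 1 weakly. Over all rows it did not follow array 2. The labels do not settle the orientation of array 3 either. Array 3 was used as deposited. Of the 19015 rows, 130 then passed 2-fold in a shared direction, against 42 with array 3 turned. Red blood cell markers had medians of 0.57, 1.32 and 0.82 on arrays 1, 2 and 3. Collecting duct markers had -0.96, -0.76 and -0.54. The medians of proximal tubule and neuron markers also kept their sign, while those of macrophage and of loop of Henle and distal tubule markers did not. Which orientation is right was not tested. With array 3 turned, the mean of 50 of the 156 carriers had the other sign, 9 of them among the 62 carriers with 1 sign on every array.

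Most solute carriers, like most rows of the whole table, lay close to a ratio of 1 between the ages. The mean log2 ratio was within 0.5 of 0 for 125 of the 156 genes. Of all 19015 rows, 1784 had a mean at least that of Slc5a1 (0.49). A mean at most that of Slc28a2 (-0.48) was found for 2024 rows. Of the carriers' means, 90 were negative and 66 positive, or 57.7% negative, beside 50.9% of all rows. The median was -0.059, against -0.0084 for all rows. Slc20a2 alone differed at least 2-fold in the same direction on each of the 3 arrays, 0.641% of the carriers, while this rule was met by 0.684% of all rows. Limma passed 0 of the 156 carriers at an adjusted p under 0.05 (0% of all rows), and an ordinary one-sample test also passed 0. The ordinary test had 19 carriers at an unadjusted p under 0.05 (12.2%, beside 9.62% of all rows), 13 positive and 6 negative (4.69% and 4.93% of all rows). At an unadjusted limma p under 0.05 there were 20 carriers, 10 positive and 10 negative, or 12.8%, beside 9.24% of all rows (4.17% positive and 5.07% negative). All 3 arrays had the same sign in 62 carriers, 30 positive and 32 negative, or 39.7%, beside 35.3% of all rows (16.8% positive and 18.5% negative). By sign, the carriers had 8.33% positive and 3.85% negative in the ordinary test, and 6.41% for each sign by limma. With 1 sign on every array they had 19.2% positive and 20.5% negative. Of these shares by sign, only the negative share of the ordinary test lay below that of all rows. These differences were not tested. Separate RNA extracts for the arrays are stated nowhere in the labels. The p-values given here therefore describe the spread among 3 arrays, which may be technical, and this number limits the precision. Gene names are those of the platform annotation, and binding of an oligonucleotide to a related carrier was not tested.

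Slc20a2 encodes a sodium-phosphate cotransporter of many cell types that also serves as the entry receptor of some mouse retroviruses. Its log2 ratios were 2.30, 2.27 and 2.11 on arrays 1, 2 and 3. All 3 arrays were positive and close together, and the mean of 2.23 ± 0.10 (SD, n = 3 arrays) corresponds to a level 4.69-fold lower at 13.5 dpc. It had the smallest p of the carriers (limma adjusted p = 0.226, not past the threshold, beside a smallest value of 0.197 over all rows). Counting Slc20a2 itself, 24 rows of the whole table had a mean at least as high. With array 3 turned its mean was 0.82. Its relative Slc20a1, which carries the same substrate, had -0.46, -0.047 and -0.19, negative on every array with a mean of -0.23 ± 0.21. Of the phosphate carriers of Slc34, Slc34a1 of the proximal tubule had 0.40, 0.026 and -0.96 and Slc34a2 had -0.051, 0.34 and 1.15. Each had arrays of both signs. Slc34a3 had no feature under this rule.

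**Figure D1:**
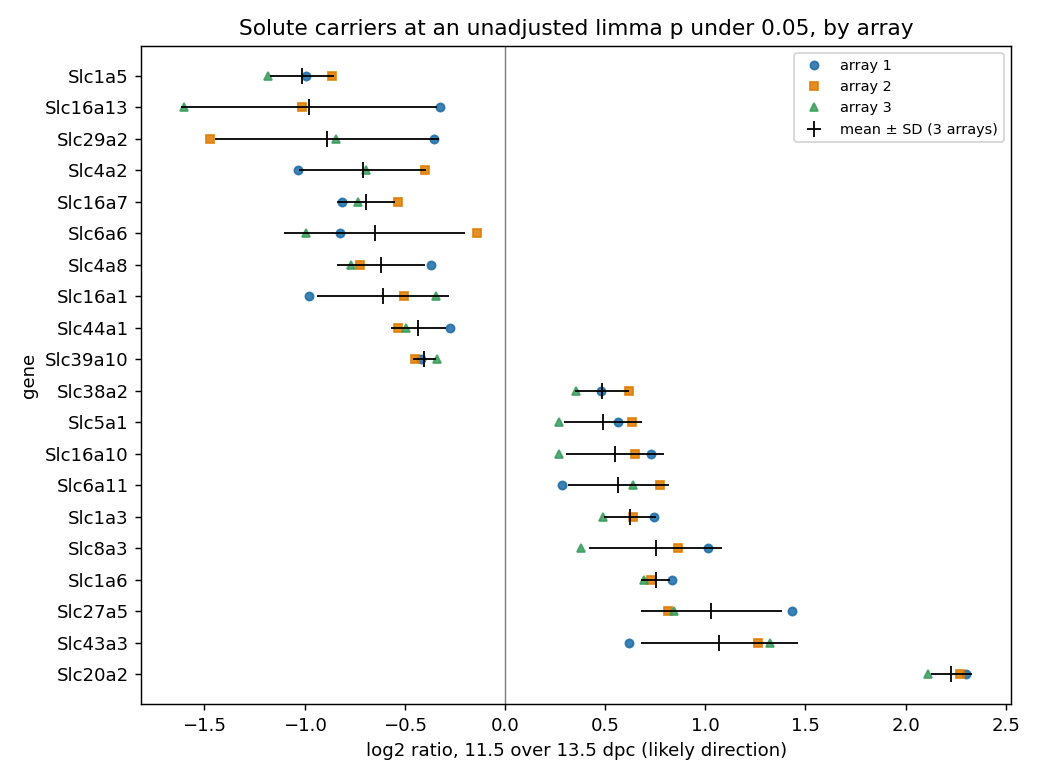
Log2 ratio (11.5 over 13.5 dpc, the likely direction) on each of the 3 arrays for the 20 solute carriers at an unadjusted limma p under 0.05, with mean and SD; 10 lie left of 0 (higher at 13.5 dpc) and 10 right of it (lower at 13.5 dpc). The 3 values of Slc20a2, from 2.11 to 2.30, stand apart from those of every other gene plotted.

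At 1.5-fold on every array, 5 carriers were counted, 4 positive and 1 negative, or 3.21%, beside 2.52% of all rows (1.19% positive and 1.33% negative). The negative one was Slc1a5, the sodium-dependent carrier of glutamine and other neutral amino acids, which is high in many dividing cells. It had -0.99, -0.87 and -1.18, a mean of -1.01 ± 0.16 that corresponds to 2.02-fold higher at 13.5 dpc (limma adjusted p = 0.359). The positive ones besides Slc20a2 were Slc43a3, Slc27a5 and Slc1a6. Slc43a3, a nucleobase carrier that stands in a family otherwise of amino acid carriers, had 0.62, 1.26 and 1.33 (mean 1.07 ± 0.39, 2.10-fold lower at 13.5 dpc). Slc27a5, known from liver for activating bile acids and long-chain fatty acids, had 1.44, 0.81 and 0.84 (mean 1.03 ± 0.35, 2.04-fold lower at 13.5 dpc). Slc1a6, a glutamate carrier known from cerebellar neurons, had 0.84, 0.73 and 0.70 (mean 0.75 ± 0.072). Their limma adjusted p lay between 0.415 and 0.420.

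The families grouped here as amino acid and neurotransmitter carriers (Slc1, Slc3, Slc6, Slc7, Slc32, Slc36, Slc38 and Slc43) held 37 genes. The class was drawn by family, so it also counts Slc43a3, the noradrenaline carrier Slc6a2 and the taurine carrier Slc6a6. Its median was -0.084 (0.023 without array 3 and 0.079 with array 3 turned), and 23 means were negative and 14 positive. On every array 8 genes were positive and 7 negative, beside 16.8% and 18.5% of all rows. At an unadjusted limma p under 0.05 there were 5 positive and 2 negative genes, beside 4.17% and 5.07% of all rows, and 0 at the adjusted threshold.

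Within Slc1, the 5 genes other than Slc1a5 included 2 glutamate carriers with positive values throughout, Slc1a6 and the astroglial Slc1a3. Slc1a3 had 0.74, 0.64 and 0.49, but this is the average of 2 features whose means were -0.030 and 1.28. The family thus held values on both sides of 0, from -1.01 to 0.75, and the median was 0.058.

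The 5 genes of Slc38, sodium-coupled carriers of neutral amino acids, all had positive means, from 0.14 to 0.49. On every array 3 of them were positive, beside 16.8% of all rows. Slc38a2, which takes up small neutral amino acids and is known to rise when amino acids are scarce, had 0.48, 0.62 and 0.35 (mean 0.49 ± 0.13). The glutamine carrier Slc38a3 had 0.38, 0.58 and 0.25, and Slc38a9, a lysosomal carrier known as an arginine sensor, had 0.40, 0.28 and 0.38. Slc38a4 and Slc38a10 had means of 0.14 and 0.16 with arrays of both signs. With array 3 turned they were -0.17 and -0.13, so 3 of the 5 means stayed positive and the family's median was 0.099 in place of 0.35. Without array 3 the mean of Slc38a4 was -0.027. Slc38a1 had -0.82 on array 1 and -0.37 on array 3 and no value on array 2, so it is not among the 5.

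The heterodimeric amino acid carriers join a heavy chain to a light chain. The heavy chain genes Slc3a1, of the cystine carrier in the kidney, and Slc3a2, of dividing cells, had means of -0.29 ± 0.18 and -0.23 ± 0.22. Slc3a1 was negative on every array (-0.48, -0.13 and -0.24), as was its light chain partner Slc7a9 (-0.54, -0.32 and -0.13, mean -0.33 ± 0.21). Slc7a5, the light chain that joins Slc3a2 to import large neutral amino acids, had 0.030, 0.18 and -0.58. Slc7a7, another light chain of the kidney and gut, had 1.14, 0.42 and -0.71. The arginine and lysine carrier Slc7a1 had -0.61, -0.86 and 0.44, and Slc7a10, a light chain known from brain, had -1.38, -0.95 and -0.017 (mean -0.78 ± 0.70, negative on every array). Over the 10 genes of Slc7 the median was -0.11. On every array 1 gene was positive and 2 were negative, beside 16.8% and 18.5% of all rows.

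In Slc6, the family of neurotransmitter, taurine and amino acid carriers that use sodium and chloride, 9 of 10 means were negative and the median was -0.17. With array 3 turned, 4 of the 10 means were negative and the median was 0.030. Of the 10 genes, only 2 were negative on every array, Slc6a4 and Slc6a6, beside 18.5% of all rows. The taurine carrier Slc6a6 had -0.82, -0.14 and -0.99 (mean -0.65 ± 0.45), which became 0.011 with array 3 turned. The 1 positive mean belonged to the GABA carrier Slc6a11, with 0.29, 0.77 and 0.64. Slc6a2, the noradrenaline carrier of sympathetic neurons, had -0.70, 0.10 and 0.074 as the average of 3 features. Of 9 measured neuron and neural crest markers, 7 had negative means (median -0.28), and 5 were negative on every array. The other 2, Gap43 and Stmn2, were positive on every array, with means of 0.94 ± 0.30 and 0.84 ± 0.29. The part of such cells in the values of Slc6 was not tested. Slc6a19, the neutral amino acid carrier of the proximal tubule brush border, had 0.027, 0.029 and -0.54.

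**Figure D2:**
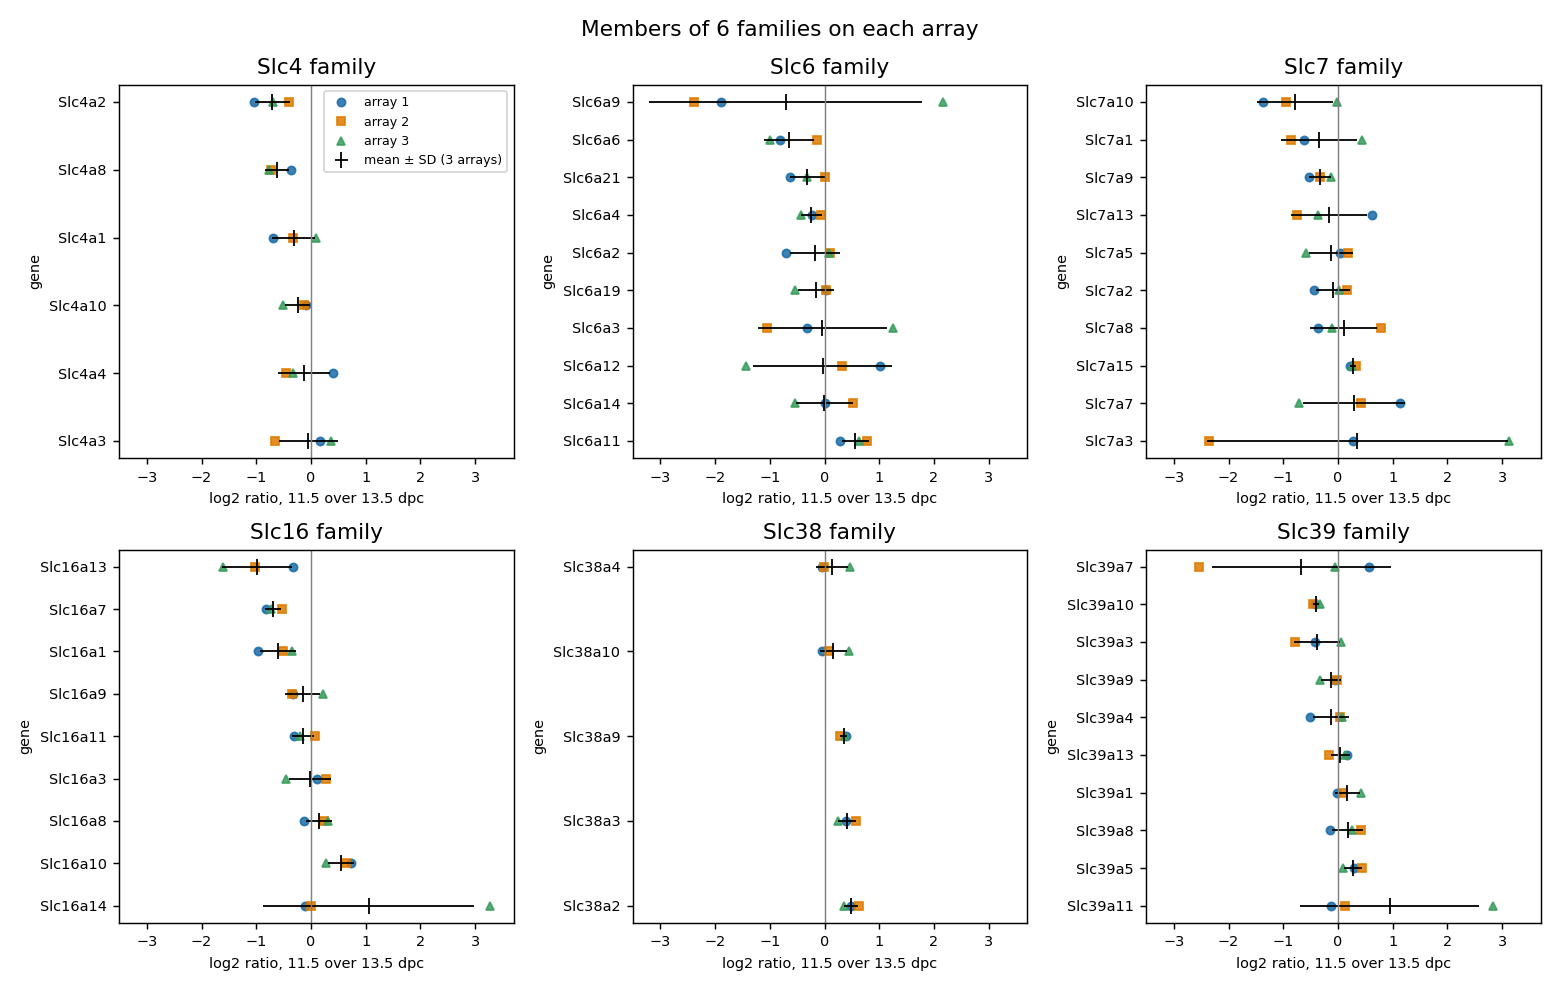
Log2 ratio (11.5 over 13.5 dpc) of each member of 6 families on each array, with mean and SD over the 3 arrays; members are ordered by mean from most negative (top) to most positive. The 6 means of Slc4 lie left of 0 and the 5 means of Slc38 right of it, while Slc6a3, Slc6a9, Slc6a12, Slc7a3, Slc16a14, Slc39a7 and Slc39a11 show arrays more than 2 log2 units apart.

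Slc4 and Slc38 were the 2 families of at least 5 measured genes in which every mean had the same sign. The sequence before the annotated start is shown for 1 gene of each, the one with the smallest p among those with 1 sign on every array and a RefSeq window at that start. The build is GRCm38.p6, each window is the 250 bases before the start, written 5′ to 3′ on the gene's strand, and capitals mark the motifs found on either strand. The motifs searched were the GC box (GGGCGG), the CCAAT box (CCAAT), the E-box (CACGTG) and the TATA box (TATAAA), none of which overlapped another here. Slc4a8 lies on the plus strand at chr15:100761497-100761746 and Slc38a2 on the minus strand at chr15:96699729-96699978.
Slc4a8: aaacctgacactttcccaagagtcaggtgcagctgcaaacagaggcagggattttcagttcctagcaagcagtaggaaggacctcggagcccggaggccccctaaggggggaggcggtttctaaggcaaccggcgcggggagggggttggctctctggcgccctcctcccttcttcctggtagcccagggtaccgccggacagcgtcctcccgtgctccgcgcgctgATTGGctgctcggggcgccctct
Slc38a2: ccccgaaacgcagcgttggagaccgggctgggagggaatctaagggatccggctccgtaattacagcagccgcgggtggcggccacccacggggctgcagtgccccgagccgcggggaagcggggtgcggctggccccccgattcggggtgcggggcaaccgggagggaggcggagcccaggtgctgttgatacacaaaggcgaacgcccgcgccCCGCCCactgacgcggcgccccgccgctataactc
The Slc4a8 window held 1 CCAAT box (on the other strand) and the Slc38a2 window 1 GC box (on the other strand). Among the 32851 RefSeq windows of this length, 33.8% held a CCAAT box, 32.7% a GC box, 12.4% a TATA box and 6.02% an E-box. GC made up 64.8% of the Slc4a8 window and 72.0% of the Slc38a2 window, against a median of 52.4% over all windows. A match is a description of letters, not a binding site.

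All 6 genes of Slc4, the bicarbonate carriers that set cell pH and move acid and base across epithelia, had negative means, and the median was -0.28. The chloride-bicarbonate exchanger Slc4a2, found on the basolateral membrane of many epithelia, had -1.04, -0.40 and -0.69 (mean -0.71 ± 0.32, 1.64-fold higher at 13.5 dpc). Slc4a8, a sodium-driven bicarbonate carrier, had -0.37, -0.72 and -0.77 (mean -0.62 ± 0.22). Slc4a10 was the third gene negative on every array (mean -0.24 ± 0.23), beside 18.5% of all rows. Slc4a4, the sodium-bicarbonate cotransporter of the proximal tubule, had 0.41, -0.47 and -0.33, and Slc4a3 is the average of 2 features with means of -0.38 and 0.28. The limma adjusted p of the 6 genes lay between 0.516 and 0.955. In 2 alternatives 4 of the 6 means were negative. With array 3 turned, Slc4a4 had 0.089 and Slc4a10 0.092 and the median was -0.18, and without array 2, Slc4a3 had 0.26 and Slc4a4 0.041 and the median was -0.30.

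Slc4a1, the anion exchanger of the red cell membrane and of acid-secreting cells of the collecting duct, had -0.70, -0.34 and 0.091 (mean -0.31 ± 0.40). Markers of red blood cells went the other way: 12 of 14 measured markers had positive means, 9 were positive on every array, and their median was 0.86 (0.57, 1.32 and 0.82 on the 3 arrays). Among these markers the embryonic globin gene Hbb-bh1 had a mean of 4.07 ± 1.09 and the erythroid membrane gene Ermap 3.51 ± 0.25, while Gata1 had -0.73 ± 0.80 and Tal1 -0.034 ± 0.23. Of the iron carriers, the iron exporter Slc40a1 was positive on every array with 0.85, 0.27 and 0.29 (mean 0.47 ± 0.33). The ferrous iron importer Slc11a2 had 0.20, 0.45 and -0.13, and its macrophage relative Slc11a1 had -0.048, -0.58 and 0.21. Macrophage markers gave 7 of 8 positive means with a median of 0.19. The part of these cells in the ratios of the iron carriers was not tested.

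**Figure D3:**
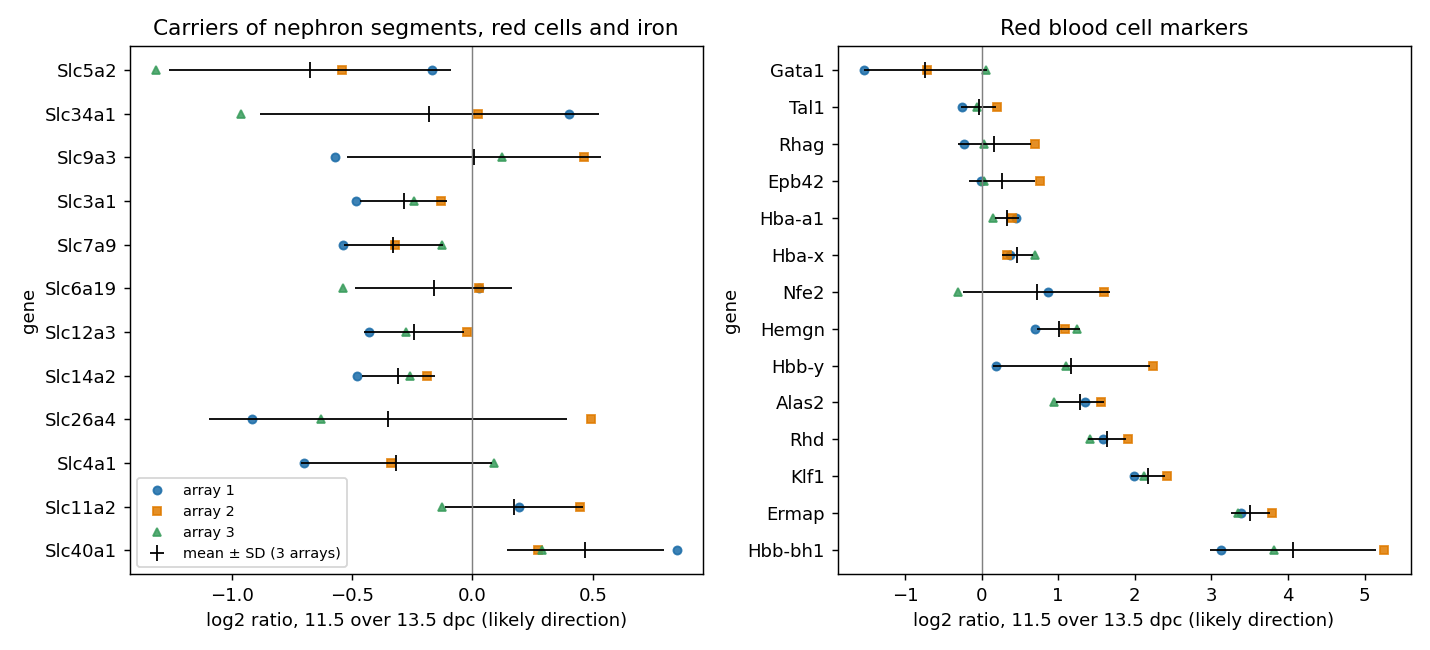
Left, log2 ratio (11.5 over 13.5 dpc) of 9 carriers of nephron segments and of 3 carriers of red cells or iron on each array, with mean and SD; right, the same for the 14 measured markers of red blood cells. Slc4a1 has a mean of -0.31, while 12 of the 14 markers have means right of 0.

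Carriers known from single nephron segments gave no common direction. The proximal tubule glucose carrier Slc5a2 had -0.17, -0.54 and -1.31, negative on every array (mean -0.67 ± 0.59, 0.20 with array 3 turned). Slc5a1, the high-affinity glucose carrier of later proximal tubule and gut, had 0.56, 0.63 and 0.27, positive on every array (mean 0.49 ± 0.19). The sodium-proton exchanger Slc9a3 of the proximal tubule had -0.57, 0.46 and 0.12. Slc13a1 and Slc13a2, the sulfate and dicarboxylate carriers of the same segment, were positive on every array with means of 0.61 ± 0.58 and 0.52 ± 0.49, while Slc13a3 had 0.94, -2.63 and -0.90. Among 11 measured proximal tubule markers that are no solute carriers, 6 means were positive and 5 negative, with a median of 0.054.

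The thiazide-sensitive sodium-chloride carrier Slc12a3 of the distal tubule had -0.43, -0.020 and -0.27 (mean -0.24 ± 0.21), and the urea carrier Slc14a2 of the collecting duct had -0.48, -0.19 and -0.26 (mean -0.31 ± 0.15). Both were negative on every array. Slc12a2, the sodium-potassium-chloride carrier found in most cells, had -0.12, -0.24 and -0.40 (mean -0.25 ± 0.14, 0.014 with array 3 turned), while the potassium-chloride carrier Slc12a7 had -0.028, 0.051 and 0.0029. Slc26a4, the anion exchanger of base-secreting cells of the collecting duct, had -0.91, 0.49 and -0.63. Among 7 measured loop of Henle and distal tubule markers that are no solute carriers, 4 means were negative and 3 positive (median -0.11). On every array 2 of them were positive and 2 negative. Collecting duct markers that are no solute carriers gave 8 of 9 negative means, 4 of them negative on every array, with a median of -0.44. Their part in the values of Slc14a2 and Slc26a4 was not tested. Slc12a1 of the loop of Henle, Slc18a1 and Slc18a2 had no feature under this rule.

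The carriers of lactate and other monocarboxylates (Slc16) split by gene. Slc16a1, the widespread lactate and pyruvate carrier, had -0.98, -0.50 and -0.34 (mean -0.61 ± 0.33), and Slc16a7, a pyruvate carrier of higher affinity, had -0.81, -0.53 and -0.73 (mean -0.69 ± 0.15, 1.62-fold higher at 13.5 dpc). Slc16a13 had -0.32, -1.01 and -1.60 (mean -0.98 ± 0.64), which became 0.087 with array 3 turned. Slc16a10, which carries aromatic amino acids and thyroid hormone, was positive on every array with 0.73, 0.65 and 0.27 (mean 0.55 ± 0.24). The lactate exporter Slc16a3 of glycolytic cells had 0.11, 0.28 and -0.46. Of the 9 genes, 3 were negative and 1 positive on every array, beside 18.5% and 16.8% of all rows. Those 4 were the Slc16 genes at an unadjusted limma p under 0.05, beside 9.24% of all rows. Their limma adjusted p ran from 0.471 to 0.534.

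Among carriers of nucleosides, ascorbate and vitamins, 6 of 15 genes were positive and 4 negative on every array, beside 16.8% and 18.5% of all rows. The median was -0.012 (0.17 without array 2). The ascorbate family Slc23 had 3 of 4 genes positive on every array: Slc23a1 with a mean of 0.42 ± 0.31, Slc23a2 with 0.19 ± 0.11 and Slc23a4 with 0.39 ± 0.088. The equilibrative nucleoside carriers gave values on both sides of 0. Slc29a2 had -0.35, -1.47 and -0.84 (mean -0.89 ± 0.56, 1.85-fold higher at 13.5 dpc), Slc29a3 of lysosomes had 0.44, 0.36 and 0.32, and Slc29a1 had -0.23, 0.059 and 0.020. The reduced folate carrier Slc19a1 had -0.16, -1.21 and 0.49 from its complete feature, and a second feature gave 6.51 on array 2 with no value on the other 2 arrays.

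Metal carriers lay near 0 as a class, with a median of -0.010 over 23 genes. On every array 4 of them were positive and 3 negative, beside 16.8% and 18.5% of all rows. Slc39a10, a zinc importer of the plasma membrane, had close values of -0.42, -0.45 and -0.34 (mean -0.40 ± 0.058, limma adjusted p = 0.539). Slc30a9, of another family of zinc carriers, had 0.39, 0.81 and 0.19 (mean 0.46 ± 0.32). The zinc exporter Slc30a1 had 0.10, -0.026 and -0.077, and the importers Slc39a1 and Slc39a8 had means of 0.17 ± 0.23 and 0.17 ± 0.29 with arrays of both signs. The 10 Slc39 genes had a median of -0.044 and the 7 Slc30 genes one of -0.010, and neither sign was stable. The Slc39 median was 0.097 without array 2 and -0.15 with array 3 turned, and the Slc30 median was -0.15 without array 2 and 0.13 without array 3.

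In the remaining classes, Slc8a3, a sodium-calcium exchanger known from muscle and brain, had 1.01, 0.86 and 0.38 (mean 0.75 ± 0.33, 1.69-fold lower at 13.5 dpc). Slc44a1, a choline carrier, had -0.27, -0.53 and -0.49 (mean -0.43 ± 0.14), and its 2 features had means of -0.52 and -0.34. All 4 Slc44 means were negative, and 1 of the 4 was negative with array 3 turned. On every array 1 Slc44 gene was negative, beside 18.5% of all rows. Slc5a7, the choline carrier of cholinergic neurons, which belongs to a family named for glucose carriers, had -0.74, -0.49 and -0.20. The inositol carrier Slc5a3 had -0.39, -0.057 and -0.55 (mean -0.33 ± 0.25, 0.033 with array 3 turned), and the urea carrier Slc14a1 had 0.17, 0.31 and -0.33, with a second feature at -6.01 on array 3 and without values elsewhere. The class medians ran from -0.27 (bicarbonate, anion exchange, sulfate and carboxylate, 14 genes) to 0.040 (sugars, inositol and nucleotide sugars, 15 genes). For the first of these the median was -0.0018 without array 2. The sugar class had -0.090 without array 1 and -0.037 without array 3. Of the 9 class medians, 2 kept their sign when any 1 array was left out and when array 3 was turned, those of this first class and of the monocarboxylates. The median over all 156 carriers was 0.026 with array 3 turned.

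**Figure D4:**
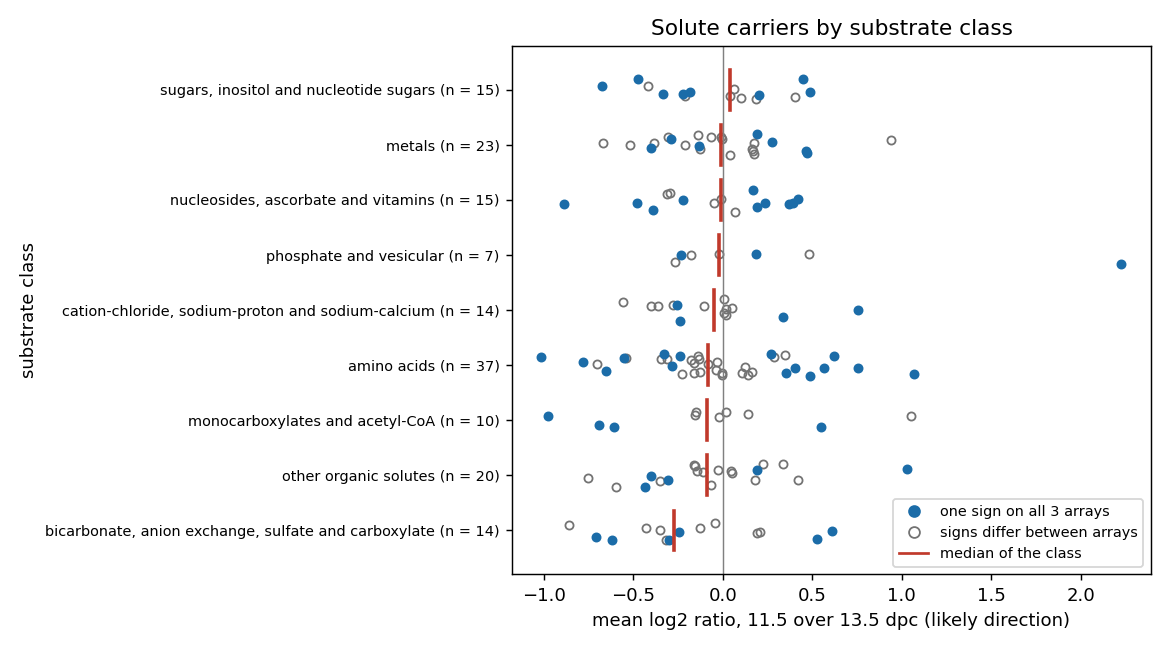
Mean log2 ratio (11.5 over 13.5 dpc) of 155 solute carriers by substrate class, with filled points for genes of 1 sign on all 3 arrays, open points for genes whose arrays differ in sign, and a line at the class median; Slc66a2, in no class, is left out. The medians lie between -0.27 and 0.040, and Slc20a2 at 2.23 is the farthest point from 0.

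Several carriers had large ratios of opposite sign on the arrays. Slc6a9, a glycine carrier, had -1.89 and -2.38 on arrays 1 and 2 and 2.16 on array 3, so its mean of -0.71 had an SD of 2.49. If array 3 is turned, Slc6a9 becomes the 1 carrier of the 156 at least 2-fold on every array (0.641%, beside 0.221% of all rows), and Slc20a2 no longer meets the rule. Slc6a9 is then also the 1 carrier at 1.5-fold (1.58% of all rows). At an unadjusted limma p under 0.05 there were then 10 carriers (6.41%, beside 6.58% of all rows), 7 positive and 3 negative (4.39% and 2.19% of all rows). The same sign on every array was then found for 45 carriers (28.8%, beside 29.2% of all rows), 25 positive and 20 negative (18.9% and 10.3% of all rows). In a limma fit with an added dye term, Slc6a9 had an age term of 0.011 and a dye term of -2.15. For Slc20a2 the age term was 2.20 and the dye term 0.087. Array 3 alone has the other dye order, so this fit cannot tell a dye effect from any other trait of that array. The cationic amino acid carrier Slc7a3 had 0.28, -2.37 and 3.13, and the lysosomal amino acid carrier Slc36a1 had -0.15, 1.28 and -2.75. Slc44a2 had 0.38, 1.72 and -2.17, and Slc66a2 had 0.23, 1.88 and -1.97. In Slc16a14 (-0.11, -0.0072 and 3.28) and Slc39a11 (-0.13, 0.13 and 2.82) array 3 alone was far from 0, and their means of 1.05 and 0.94 rest on it (-0.060 and 0.0015 without it). An SD over 1 was found for 17 carriers, or 10.9%, beside 11.7% of all rows.

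**Figure D5:**
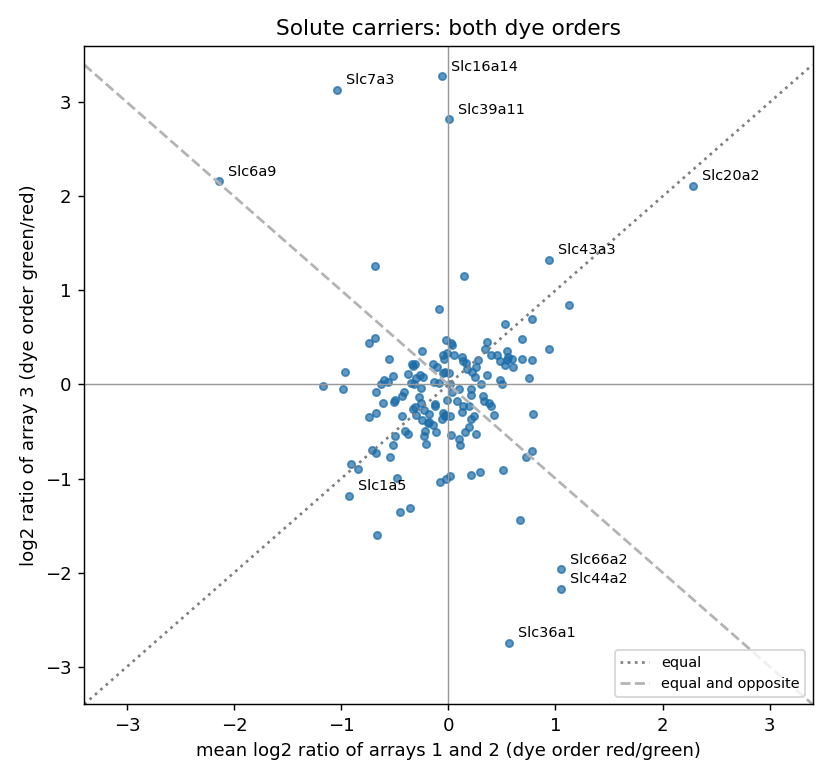
Log2 ratio of array 3 (dye order green/red) against the mean of arrays 1 and 2 (red/green) for the 156 solute carriers, with lines for equal values and for equal values of opposite sign. Slc20a2 lies near the line of equal values and Slc6a9 near the line of opposite ones.

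The oligonucleotide library is partly ordered by function, so carriers stand next to each other. Of the 180 carrier features, 79 lay in 1 dense stretch of the library and 36 in another, both picked out after their positions were seen. In the first stretch, the carriers had a median of -0.13 and the other features one of -0.031. In the second, carriers had 0.040 and other features 0.057, and 19.4% of carrier features and 15.5% of the others lacked a value on some array, against 1.54% and 6.46% in the rest of the library. After subtraction of a running median along the library, Slc20a2 had 2.24 and Slc1a5 -1.03, and 57 of the 62 genes with 1 sign on every array were among the 69 then found.

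Of the 8 carriers without values on all arrays, Slc12a5 and Slc17a9 had none. Slc17a1 had 1.18 and Slc46a3 0.51 on array 3 alone, and Slc45a2 had 0.065 on array 2 alone. Slc17a5 had 1.22 and -1.39 on arrays 1 and 2, Slc7a11 had 1.00 and -1.02 on arrays 2 and 3, and Slc38a1 is given above. None of these was tested. More than 1 complete feature was present for 12 carriers. Features disagreed in the sign of their mean for 8 of these, and differed by over 1 log2 unit for 2, Slc1a3 and the sodium-calcium exchanger Slc8a1 (-0.49 and 0.53).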

How the data were processed

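The deposited value table holds log2 ratios of the 2 channels of each array. Their base was found from the values: 2 raised to each value between -3 and 2 was a whole multiple of 0.001, within 0.02 of that step, for 100% of them (4.42% for base e, 4.26% for base 10). Per the labels, spots were read with ImaGene 5.5. For the normalisation by the authors the labels give 2 versions, print-tip loess with a normalisation between arrays in R, and a Lowess curve through 20% of the data with control values under 10 set to 10. The sources used here do not say which version made the table. No spot brightness was used here, so nothing was filtered on signal and no levels can be given.

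Of 22702 features, 883 control or blank features were left out. Symbols came from the platform annotation: 16656 features had 1 symbol, 137 several and 5026 none. Entrez identifiers matched 15970 features to the GRCm38.p6 gene table and renamed none. The 20386 features with values on all arrays gave 19015 rows after features of 1 symbol were averaged (14433 named). Means were tested against 0 over all rows by lmFit and eBayes of limma 3.58.1 under R 4.3.3, two-sided, with Benjamini-Hochberg adjustment. Figures and counts used Python 3.11.15. The procedure was tested on simulated data, in which each array was shuffled and known changes were added. What was required was that the mean ratio recovered their size. The share of such changes that passed the adjusted threshold is not given here. Promoter windows come from RefSeq, with an entry for 124 of the 156 carriers.

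Named genes are those that differed at least 2-fold in 1 direction on each array, the gene with the smallest p of each sign in each substrate class where it had 1 sign on all arrays, and a list of 45 carriers of nephron segments, red cells, neurons and general supply; others were named after their values were seen. The members and lists were chosen with earlier results of these data known. Array 3 would have been turned had it correlated below 0 with both other arrays, which it did not. Alternatives were leaving out each array, array 3 turned, centring, scaling, quantile normalisation, single features, limited values, a dye term, the ordinary test and other folds; the running median along the library (201 features) was chosen after seeing the data.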

Additional observations from a re-analysis of the deposited data

How the results depend on the processing

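Limma passed 0 of the 156 carriers under every alternative run. Leaving out 1 array moved the count at an unadjusted p under 0.05 (20) to between 8 and 20, with 3 to 12 positive and 5 to 8 negative. The count with 1 sign on every array left went to 39 to 55 positive and 44 to 52 negative, where fewer arrays had to share a sign, and the count at least 2-fold to 1 to 3 (Slc16a13 and Slc43a3 joined without array 1, Slc6a9 without array 3). No shares of all rows are given for these counts with an array left out, so they cannot be set against the background. The median over all carriers ran from -0.10 to -0.024. With array 3 turned, 10 carriers had an unadjusted p under 0.05 (3 negative), 20 were negative and 25 positive on every array, and the median was 0.026. The other sign was then found for 50 carrier means, among them Slc5a2 (0.20), Slc5a3 (0.033), Slc6a6 (0.011), Slc12a2 (0.014) and Slc16a13 (0.087). Leaving out array 1, 2 or 3 turned 20, 30 and 25 means. The cause was not tested. With every feature its own row, 2 features were at least 2-fold, of Slc20a2 and Slc1a3; at 1.5-fold the count was 5 and at 3-fold 1. The ordinary one-sample test gave 19 carriers at an unadjusted p under 0.05, 13 positive and 6 negative. Centring, scaling, quantile normalisation, limited values and the running median left Slc20a2 as the 1 carrier at least 2-fold. Both ages share each array, so the test of the ratio against 0 is already paired by array.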
